A study of Drosophila melanogaster with 4 samples.

Results

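Dense chains of CBP-bound regions were collected from the genomes of 2-4 hour old wild-type and gd7 Drosophila melanogaster embryos. The bound regions of both genotypes were pooled, those that overlapped by at least 1 bp were merged, and merged regions with a gap of at most 5000 bp on the same chromosome arm were joined into a chain. A chain counted as dense when it held 5 or more merged regions. There were 74 dense chains, with 448 of 3685 merged regions and 690 of 4952 original regions, of which 335 came from wild-type and 355 from gd7. The rule used the positions of the regions in both genotypes, so how closely the regions lie, how many there are and how often they overlap are descriptions of the chains and have no test.

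The lists come from ChIP-seq (immunoprecipitation of chromatin followed by sequencing) with a rabbit antibody against the Drosophila CBP protein, on whole embryos. The wild-type embryos were of the w1118 strain, and the gd7 embryos came from mothers homozygous for gd7, in which the Dorsal protein does not enter the nucleus and the whole embryo takes the fate of dorsal ectoderm. Each genotype had 1 CBP library, pooled from several immunoprecipitations, and 1 input library, and both genotypes were collected and aged in the same way. With 1 library per genotype no difference in these lists has a replicate check, and every interval given here is over regions only. Separately, the paper reported higher CBP occupancy at ush in gd7 by quantitative PCR on independent immunoprecipitations.

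CBP is a co-activator and histone acetyltransferase with no sequence preference of its own, which transcription factors bring to enhancers and promoters. Genes that control early development in Drosophila often have several separate enhancers within a short stretch, each with its own set of bound factors, so that such loci can carry many bound regions close together. Along the dorsal-ventral axis, nuclear Dorsal switches on mesoderm and neuroectoderm genes and represses dorsal genes such as dpp, whose product signals through Smad proteins in the dorsal ectoderm.

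The value of a region is its log2 enrichment of ChIP over input, on release 5 of the genome. It was taken by the authors as the mean of the 5 highest consecutive values of the region. Gene names are those of the closest start site given in the study's own peak table. Only a part of that table was used here, which covered 51 of the 74 chains through 85 genes. Outside part of 2L the table used here names wild-type regions only, so 24 of the 355 gd7 regions in chains have a gene of their own. A chain is therefore named mainly by its wild-type regions, which are few at Doc2, Doc1, CG12007 and tou, and its gd7 regions may lie nearer to other genes. The part used here also ends within 3R and does not reach X. Gene names were therefore not assigned to the other 23 chains, which are given by position. The genotypes were not scaled to one another by the authors. Where a region has no partner, the other genotype stayed under the authors' cut-off or was too short there, and its value is not known. Read depth is not part of the lists, so the number of reads behind a region is unknown here.

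The chains held more of the gd7 regions than of the wild-type regions. In gd7, 18.3% of all regions lay in a chain (355 of 1939, 95% Wilson interval 16.7 to 20.1%), and in wild-type 11.1% (335 of 3013, 10.05 to 12.3%). Over the whole lists, 40.4% of wild-type regions overlapped a gd7 region and 62.7% of gd7 regions overlapped a wild-type region. Chains held 18.9% of the 1217 wild-type regions that overlapped a gd7 region, and 5.85% of the 1796 that did not. For gd7 regions the same shares were 18.7% of 1215 and 17.7% of 724. The lower share in wild-type thus went with wild-type regions that had no gd7 partner, while gd7 regions with and without a partner were found in chains about equally often.

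Among the 448 merged regions of the chains, 215 (48.0%) held both genotypes, 105 (23.4%) wild-type alone and 128 (28.6%) gd7 alone. Elsewhere in the genome, 29.3% of 3237 merged regions held both, 52.2% wild-type alone and 18.4% gd7 alone. A total of 32 chains had more gd7 than wild-type regions, 31 had more wild-type regions and 11 had as many of each. No chain lacked a wild-type region, and 2 chains lacked a gd7 region. The strongest region of a chain was a gd7 region in 36 chains and a wild-type region in 38.

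The chains spanned from 4.06 to 29.5 kb with a median of 11.8 kb, and 904.544 kb in all. Wild-type regions covered 22.7% of this length and gd7 regions 28.3%. The gaps between neighbouring merged regions had a median of 979 bp, and 192 of 374 gaps were under 1 kb. Most chains were near the smallest size, with 42 chains of 5 merged regions, 15 of 6 and 17 of 7 or more. Every major arm had them, with 12 on 2L, 14 on 2R, 13 on 3L, 22 on 3R and 13 on X, while chromosome 4, which had 28 wild-type and 8 gd7 regions, had 0.

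**Figure D1:**
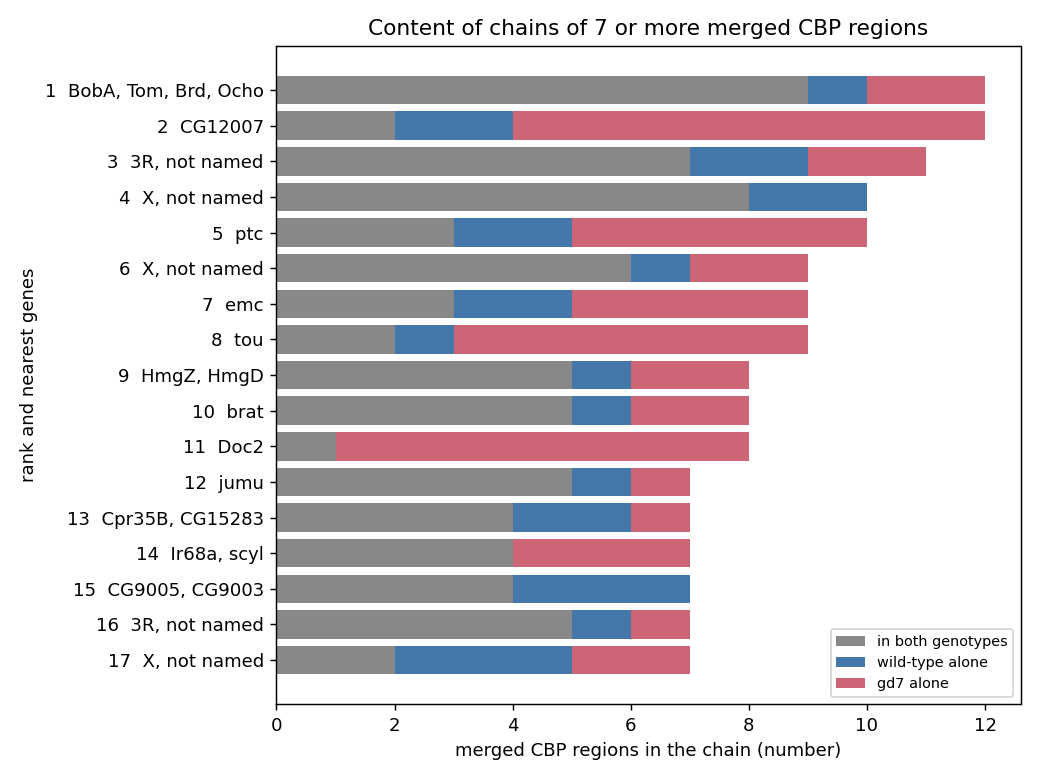
Content of the 17 chains of 7 or more merged regions, in order of rank from the top. Bars give the number of merged regions found in both genotypes (grey), in wild-type alone (blue) and in gd7 alone (red), starting at 0. The chain at Tom and Brd has 9 in both genotypes, whereas the chain at CG12007, of the same total of 12, has 8 in gd7 alone and the chain at Doc2 has 7 of 8 in gd7 alone.

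The highest ranked chain covered genes of the Bearded family, small proteins that inhibit the ubiquitin ligase Neuralized and thereby Notch signaling. It lay on 3L from 14945735 to 14972825 and held 13 wild-type and 11 gd7 regions in 12 merged regions, the wild-type ones nearest to BobA, Tom, Brd, Ocho and CG3349. Its wild-type regions had values from 2.09 to 3.89 with a median of 2.35, and its gd7 regions had values from 2.05 to 5.06 with a median of 3.33. The gd7 regions were also longer and covered 62.3% of the chain, against 45.5% for wild-type.

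Of the 12 wild-type regions in this chain that overlapped a gd7 region, 11 had the higher value in gd7, and 8 of them were more than 2-fold higher. Over all 1217 shared wild-type regions, 53.2% had the higher value in gd7, and the share past the 2-fold limit was 10.2% upwards and 5.92% downwards. The median difference was 1.17 on the log2 scale, with a range of -0.12 to 2.01. The strongest gd7 region of all chains, from 14960260 to 14962780, had a value of 5.06 and overlapped 2 wild-type regions nearest to Tom, with values of 3.49 and 3.89. Next to it, a gd7 region of 4.37 overlapped wild-type regions of 2.36 and 3.004, also nearest to Tom. These pairs share a gd7 region, and the 8 regions over 2-fold higher rested on 5 gd7 regions. Nearest to Brd, wild-type reached 2.91 and gd7 3.98, and for the first region at Ocho the values were 2.24 and 3.50. The exception was the other region at Ocho, at 2.16 in wild-type and 2.05 in gd7.

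The genes Doc1 and Doc2, which encode T-box transcription factors of the dorsal ectoderm and amnioserosa, had a chain each, separated by 6.37 kb on 3L. Both consisted almost entirely of gd7 regions. The chain at Doc2, from 9005080 to 9024365, held 8 gd7 regions with values from 2.23 to 3.22 and a single wild-type region. That region, from 9012255 to 9012815, was among the 10 strongest wild-type regions of the chains at 3.98, and the gd7 region over it had a value of 3.13. At Doc1, from 9030735 to 9038855, 6 gd7 regions had values from 1.956 to 2.95, and the single wild-type region had a value of 3.08 where gd7 had 2.95. Where both genotypes had a region, then, the value was lower in gd7, by 0.85 at Doc2 and 0.13 at Doc1, within the 2-fold limit. In the order of genes on release 6, Doc2 and Doc1 are neighbours, with Doc3 and CG5194 on the other side of Doc2.

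**Figure D2:**
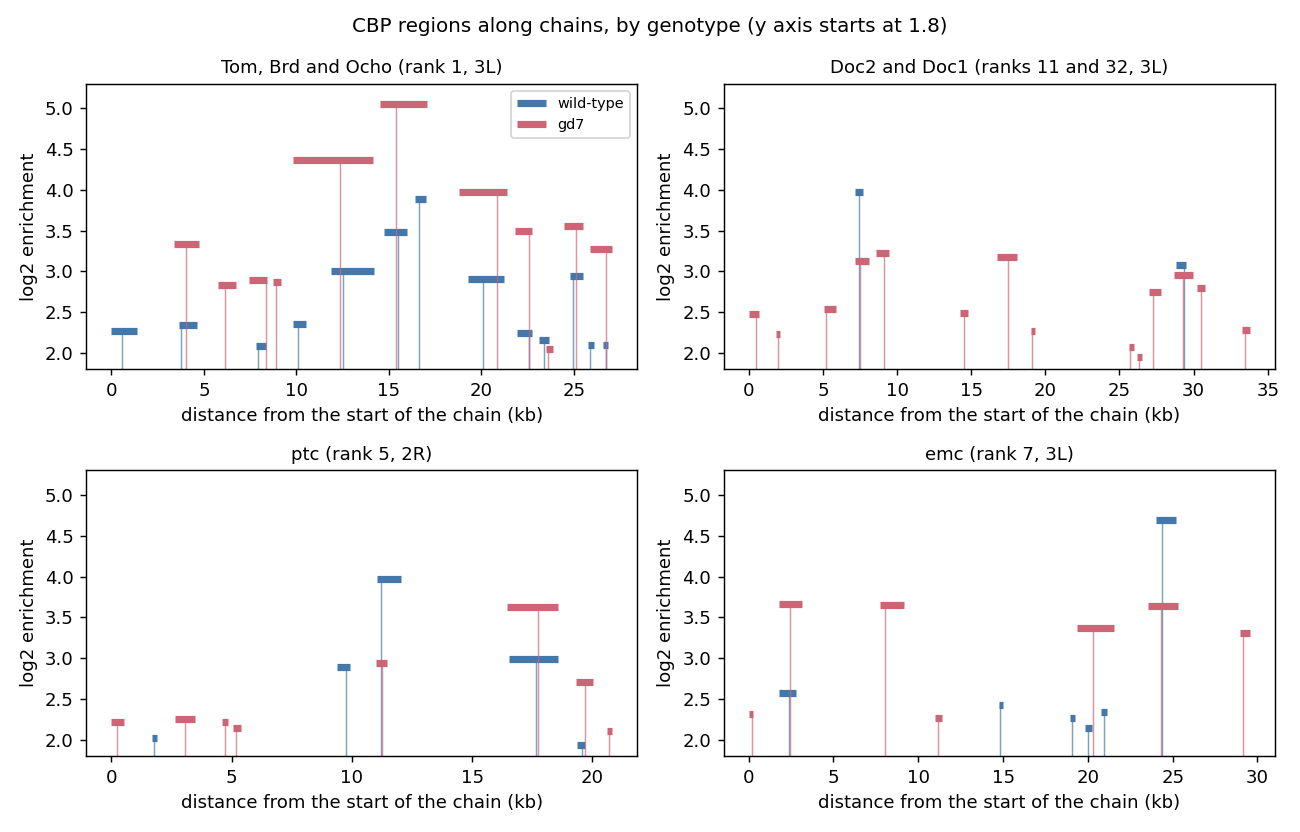
CBP regions along the chains at Tom, Brd and Ocho, at Doc2 and Doc1, at ptc and at emc. The x axis gives the distance from the start of the chain in kb, each horizontal bar is a bound region at its log2 enrichment (wild-type blue, gd7 red), the thin line marks its listed centre, and the y axis starts at 1.8. At Tom the gd7 bars reach 5.06 over wild-type bars of at most 3.89, and at Doc2 and Doc1 14 gd7 bars stand beside 2 wild-type bars of 3.98 and 3.08.

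The gene dpp, whose product is the BMP ligand of the dorsal ectoderm, had a chain on 2L from 2448355 to 2462530 with 4 wild-type and 6 gd7 regions. Its wild-type regions had values of 2.03, 2.16, 2.61 and 2.44 in order along the chromosome, and the gd7 regions over them had 2.43, 2.02, 2.495 and 3.34. The differences were 0.40, -0.15, -0.11 and 0.90, so none passed 2-fold. The 2 gd7 regions without a wild-type partner lay at the ends of the chain, with values of 2.35 and 3.07.

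At ush, the gene of a Friend-of-GATA co-factor that responds to Dpp signaling, the chain from 516495 to 523845 on 2L was carried by gd7. It held 3 wild-type regions with values of 2.14, 2.17 and 2.07, and the gd7 regions over them had values of 2.26, 3.70 and 2.62. The middle difference, 1.53, passed the 2-fold limit, and the other differences were 0.12 and 0.55. A further 2 gd7 regions had values of 2.23 and 2.73. All 3 wild-type values lay near the bottom of the wild-type list, whose lowest value is 1.88, and gd7 regions covered 72.9% of the chain against 25.3% for wild-type.

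The chain at shn, a zinc finger protein that acts downstream of Dpp, was picked after its values were seen. It lay on 2R from 7078715 to 7091000 and had 5 wild-type and 4 gd7 regions. The 3 shared wild-type regions had values of 2.94, 2.97 and 2.57, against 3.19, 3.61 and 2.04 in gd7. A gd7 region of 3.57 at the start of the chain had no wild-type partner, and wild-type regions of 2.32 and 2.22 had no gd7 partner.

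Chains were also found at genes that divide the embryo along the anterior-posterior axis. The largest of them was the chain at ptc, the Hedgehog receptor, on 2R from 4525745 to 4546570, with 5 wild-type and 8 gd7 regions. Of the wild-type regions 3 were nearest to ptc, the first was nearest to CG8635 and the last to Acsl, a fatty acid-CoA ligase gene. Its strongest wild-type region, from 4536770 to 4537785, had a value of 3.97 and was lower in gd7, at 2.94, a difference of -1.03. The wild-type region next to it along the chain, from 4542265 to 4544295, had a value of 2.99 and was higher in gd7, at 3.62. Differences of opposite sign thus stood in neighbouring merged regions at the same gene.

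The pair-rule genes opa, odd and ftz, which set up the segments, had 4 chains in all. At opa, a zinc finger gene on 3R, the wild-type regions had values of 2.31, 2.21 and 3.94 and the gd7 regions over them 2.89, 3.38 and 2.46. The last of these differences, -1.48, was the lowest of any shared region in the chains, and the middle one was more than 2-fold higher in gd7, by 1.17. At odd on 2L, all 4 shared wild-type regions were lower than their gd7 partners, by 0.07 to 0.65. The last of these 4 was nearest to Dot.

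Both chains at ftz, a homeodomain gene of the Antennapedia complex, lay on 3R with 13.2 kb between them. In the first, from 2682995 to 2694335, the wild-type regions had values of 2.04 and 2.33 and the gd7 regions over them 2.60 and 3.18, and 3 more gd7 regions had values from 2.09 to 2.54. The second, from 2707530 to 2719535, had shared regions of 2.03 and 2.88 in wild-type, against 2.28 and 2.17 in gd7. Its other members were a wild-type region of 2.52 and gd7 regions of 2.68 and 2.30.

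The zinc finger gene tsh had a chain of weak regions on 2L, with 4 wild-type values from 2.06 to 2.28 and 4 gd7 values from 2.26 to 2.77. All 3 of its shared regions were higher in gd7, by 0.18 to 0.30. At hth, a homeodomain gene, 5 wild-type regions had values from 2.35 to 3.79 and the strongest of them, at 3.79, was more than 2-fold lower in gd7, at 2.47. The other shared regions at hth differed by -0.15, 0.99 and 0.84. At salm, a zinc finger gene, the wild-type regions had values of 4.08 and 2.88 and the gd7 regions over them 3.57 and 2.40, while 3 further gd7 regions from 2.43 to 2.89 had no wild-type partner.

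Chains were also found at emc, which the gene lists used here placed with the Notch and Bearded genes, and at neur. The emc gene encodes a helix-loop-helix protein without a DNA-binding domain, which blocks its bHLH partners, and its chain was the longest, on 3L from 724360 to 753900. It held 6 wild-type regions, nearest to emc or to CG13897, which lies next to emc, and 7 gd7 regions. The wild-type region from 748370 to 749560, nearest to emc, had a value of 4.69, the second highest wild-type value of all chains, and was lower in gd7, at 3.64. The other 3 shared wild-type regions were each more than 2-fold higher in gd7. At CG13897 the values were 2.57 in wild-type and 3.66 in gd7, and at emc wild-type regions of 2.15 and 2.34 shared a gd7 region of 3.38. A further 4 gd7 regions, from 2.27 to 3.65, had no wild-type partner.

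The chain at neur, which encodes the Neuralized ligase, lay on 3R from 4845470 to 4864055 with neighbours tgo, a bHLH-PAS partner protein, and hyx, a subunit of the Paf1 complex. All 4 shared regions were higher in gd7. The 2 at neur had values of 2.26 and 2.83 in wild-type and 3.73 and 3.02 in gd7, so that the first was more than 2-fold higher. The regions at tgo and hyx had wild-type values of 2.35 and 2.14 and gd7 values of 3.03 and 2.82. From the same libraries, the paper placed neur among Dorsal target genes at which CBP stayed relatively unaffected in gd7. A chain of a different kind began 14.0 kb further along, at CG11033, named Kdm2 on release 6, a histone demethylase gene. It had 5 wild-type regions with values from 2.02 to 3.68 and gd7 regions of 2.43 and 2.00, both over the strongest wild-type region. That region was lower in gd7 by 1.25, and the other 4 had no gd7 partner.

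Several chains held genes of chromatin proteins. Psc and Su(z)2, which encode related subunits of a Polycomb complex, shared a chain on 2R from 8866900 to 8884890. Its wild-type regions at Psc had values of 4.00 and 3.23, against 3.27 and 3.87 in gd7, and its region at Su(z)2 had 3.67 against 2.89. The first region at Psc and the region at Su(z)2 were therefore lower in gd7, and the second region at Psc was higher, all within 2-fold. A region of 2.11 near CG33798 had 2.41 in gd7, and a second one there, at 2.18, had no gd7 partner.

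RYBP, whose product joins Polycomb complexes, and ppa, an F-box protein gene, shared a chain on 2R from 18565785 to 18579960. The region at RYBP had a value of 4.29, exceeded in wild-type members only by the regions of 4.92 on 3R and 4.69 at emc, and had no gd7 partner. At ppa, a wild-type region of 3.63 overlapped a gd7 region of 4.49, the second highest gd7 value of the chains. The trx gene, a histone methyltransferase that counters Polycomb repression, was picked after its values were seen. Its chain, on 3R from 10103730 to 10112655, had shared wild-type values of 3.01, 2.69 and 3.51 and gd7 values of 3.66, 2.58 and 3.12. Wild-type regions of 2.90 and 3.12 between them had no gd7 partner.

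HmgZ and HmgD, which encode HMG-box chromatin proteins, shared a chain of 8 merged regions on 2R from 17588235 to 17601955. A wild-type region nearest to CG30403 lay between those nearest to HmgZ and HmgD. The 6 wild-type regions had values from 2.06 to 3.41 and the 8 gd7 regions from 2.11 to 3.09. All 5 shared regions differed by less than 2-fold, with 4 higher in gd7 by 0.16 to 0.38 and the one at HmgD lower by 0.42.

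The gene tou, which encodes a bromodomain chromatin protein and lies next to en on release 6, had a chain of 9 merged regions on 2R from 7479780 to 7492905. It held 3 wild-type regions with values of 2.88, 2.48 and 2.73 and 8 gd7 regions with values from 1.94 to 2.88. The gd7 regions over the first and second wild-type regions had 2.45 and 2.80, and the remaining 6 gd7 regions had no wild-type partner. Another chain began 21.0 kb away at CG9005, named atos on release 6, and CG9003. It was of the opposite make-up, with 7 wild-type regions of 2.11 to 2.75, 5 gd7 regions of 2.00 to 2.49 and 3 merged regions in wild-type alone.

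The second ranked chain, on 3R from 931000 to 952945, was named by its wild-type regions, nearest to CG12007, known as RabGGTa on release 6, a subunit of a Rab prenyltransferase. It was the chain with the most regions in gd7 alone, 8 of 12 merged regions. Its 10 gd7 regions had values from 2.05 to 3.33. The 4 wild-type regions had values of 2.30, 2.57, 1.961 and 3.44 in order along the chromosome. The gd7 region over the first had 3.33 and that over the 1.961 region had 2.255. The strongest wild-type region, from 952700 to 952945 at the end of the chain, had no gd7 partner, although gd7 regions of 3.12 and 3.25 lay just before it.

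**Figure D3:**
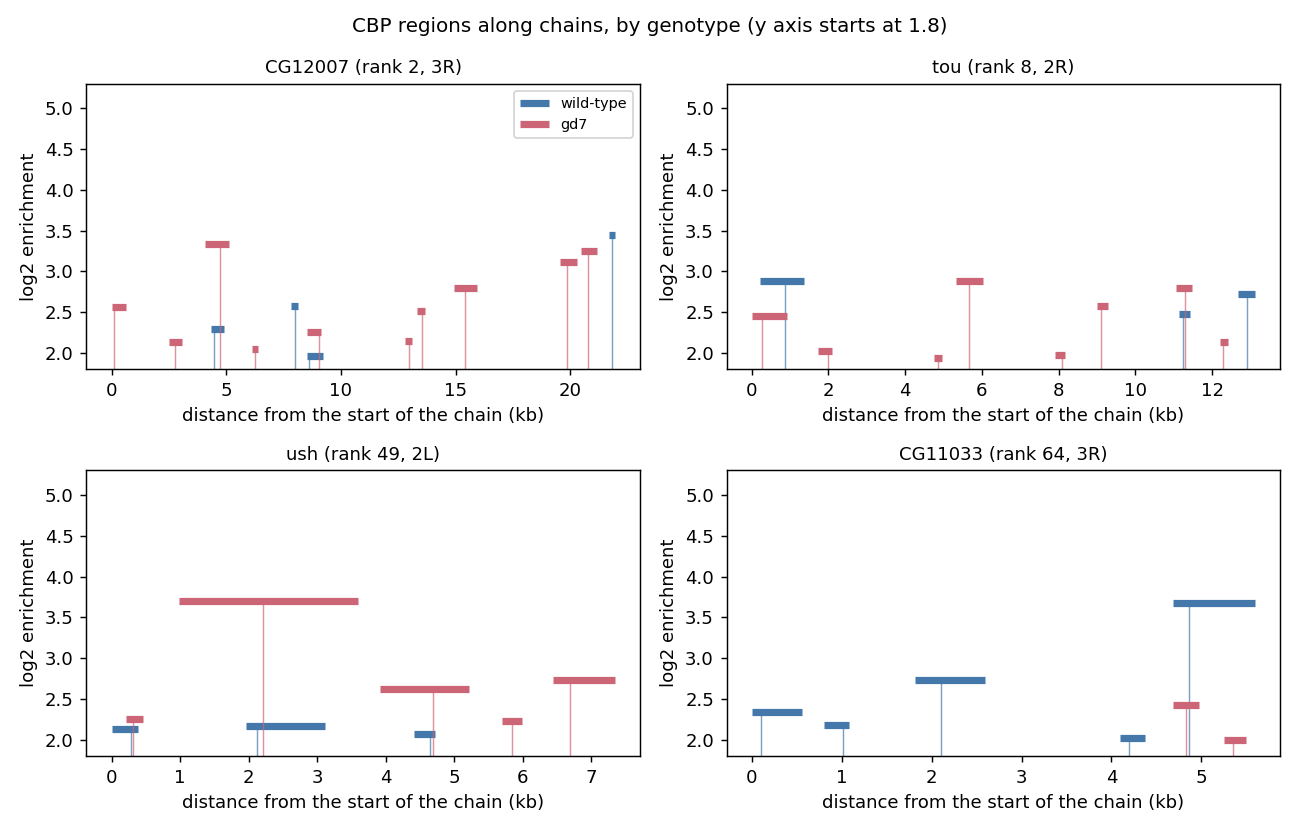
CBP regions along the chains at CG12007, tou, ush and CG11033, drawn as distance from the start of the chain in kb (x axis) against log2 enrichment (y axis, starting at 1.8). Horizontal bars are bound regions, blue for wild-type and red for gd7, and thin lines mark their listed centres. At CG12007, tou and ush gd7 has 10, 8 and 5 bars against 4, 3 and 3 in wild-type, and at CG11033 wild-type has 5 against 2.

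Other high-ranking chains lay at genes with mixed roles. At brat, a translational repressor gene on 2L, gd7 regions covered 53.6% of the chain from 19154765 to 19167050, and wild-type regions 36.2%. The 5 shared wild-type regions had values of 2.81, 3.22, 2.90, 2.84 and 2.68, and the gd7 regions over them 2.02, 3.80, 3.44, 3.23 and 3.57. The first was lower in gd7 and the other 4 were higher, all within 2-fold. At jumu, a forkhead gene on 3R, 6 shared wild-type regions had values from 1.99 to 3.37, of which 5 were higher in gd7. The 2 more than 2-fold higher at jumu had values of 2.63 and 2.09 in wild-type, and both gd7 regions over them had 3.72.

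The chain at scyl, a negative regulator of TOR signaling, on 3L from 11229295 to 11246830, held some of the largest differences. A long gd7 region with a value of 3.90 covered wild-type regions of 2.27, nearest to the chemoreceptor gene Ir68a, and 2.06, nearest to scyl, which gave differences of 1.64 and 1.84 from the same gd7 region. The remaining shared regions at scyl had wild-type values of 2.91, 2.19 and 3.66 against 3.46, 2.15 and 3.75. The gd7 region of 4.01 at the start of this chain was the strongest gd7 region of all chains without a wild-type partner.

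At th, which encodes the caspase inhibitor DIAP1, the chain on 3L from 16035775 to 16046065 had shared wild-type values of 3.02, 2.83, 1.98 and 2.53. The highest gd7 values over them were 4.10, 4.10, 2.63 and 3.38, so that the first and second, which share a gd7 region, were more than 2-fold higher. A region near Mbs, the myosin phosphatase targeting subunit, went the other way, with 2.74 in wild-type and 2.18 in gd7. At rib, a BTB transcription factor gene, a wild-type region of 3.97 was at 3.06 in gd7. The small heat shock genes Hsp22, Hsp26, Hsp23 and Hsp27, picked after their values were seen, each had 1 wild-type region, at 3.19, 3.43, 3.04 and 2.39. In gd7 these were at 2.89, 2.51, 3.45 and 2.33.

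Medians below 0 among named chains with 3 or more shared regions were found at lola, RanBPM and skd, among others. The chain at lola, a BTB zinc finger gene on 2R, had wild-type values of 3.25, 2.08, 3.52 and 3.23 at its shared regions and gd7 values of 3.37, 2.64, 2.80 and 2.48. The chain at Prx2540-2, CG11825, CG33474 and RanBPM, also on 2R, had shared wild-type values of 3.28, 3.52, 2.74 and 2.87 against 2.40, 2.76, 2.48 and 2.95 in gd7. At CG12984 and skd, a Mediator subunit gene on 3L, the shared wild-type values were 2.57, 2.86 and 2.63 and the gd7 values 2.64, 2.46 and 2.41. The median differences in these chains were -0.30, -0.51 and -0.22, and none of their regions passed 2-fold.

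Among the chains that were not named, the largest lay on 3R from 21844095 to 21868385, with 9 regions in each genotype. Its 7 shared regions differed by -0.37 to 1.56, with a median of -0.14. A chain on X from 2187185 to 2202865 had 10 wild-type and 9 gd7 regions, and 5 of its 8 shared regions were lower in gd7, with a median of -0.40. The chain on X from 6747335 to 6762805 had 8 regions in each genotype and a median difference of 0.25. These large chains were thus close to even in number, and their median differences were small next to that of the chain at Tom and Brd.

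A different picture was found on X from 19658695 to 19670210. Its 5 wild-type regions had values from 2.03 to 2.90, its 5 gd7 regions from 2.45 to 4.06, and all 5 wild-type regions were lower than the gd7 region over them, by 0.74 to 1.83. Some of these wild-type regions share a gd7 region, and the 3 more than 2-fold higher rested on 2 gd7 regions. The median difference, 1.17, was as high as at Tom and Brd, and gd7 regions covered 68.1% of the chain against 24.4% for wild-type. On 3R from 12682810 to 12695480, in contrast, the strongest wild-type region of all chains had a value of 4.92 and was more than 2-fold lower in gd7, at 3.64.

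At the extremes of content, 4 chains had a single wild-type region. Besides Doc2 and Doc1 these were a chain at CG10479 on 3L from 5963580 to 5977510, with 6 gd7 regions from 1.98 to 3.06, and a chain on 3R from 11847745 to 11860415. In the latter the only wild-type region, at 4.05, overlapped none of the 4 gd7 regions, which had values from 2.31 to 3.41. In the opposite direction, 2 chains had 5 wild-type regions and no gd7 region, at CG31821 and CG13244 on 2L, with values from 2.06 to 2.75, and on X from 9578345 to 9588285, with values from 2.42 to 3.24. A further 2 chains had a single gd7 region, at nrv1 and nrv2, genes of sodium pump subunits on 2L, and on X from 7596470 to 7604240. At nrv1 and nrv2 the 4 wild-type regions, from 2.06 to 3.27, and the gd7 region of 2.47 did not overlap. At CG9837 on 3R, 4 of 6 wild-type regions, all from 1.97 to 2.18, had no gd7 partner.

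Wild-type regions in chains overlapped a gd7 region more often than wild-type regions elsewhere. Of the 335 wild-type members, 230 (68.7%, 95% Wilson interval 63.5 to 73.4%) overlapped a gd7 region, against 36.9% of the 2678 other wild-type regions and a background of 40.4% over the whole list. Of the 355 gd7 members, 227 (63.9%, 58.8 to 68.8%) overlapped a wild-type region, against 62.4% of the 1584 other gd7 regions and a background of 62.7%. Since the rule pooled both genotypes, these shares describe the chains and were not tested.

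The higher share in wild-type was found at each level of enrichment. It was 56.8% in chains and 22.4% elsewhere for values under 2.25, and 69.9% and 36.5% for values from 2.25 to 3. For values of 3 or more it was 85.3% (75.0 to 91.8%) and 71.1% (66.6 to 75.2%). These last intervals overlapped, and those of the lower bands did not. For gd7 regions the same bands gave 42.1% and 46.0%, 62.5% and 60.6%, and 84.2% and 85.2%, and in each band the intervals in and outside chains overlapped. The overlap of wild-type members went with chain size too, from 61.7% in chains of 5 merged regions to 72.3% in chains of 6 and 76.9% in chains of 7 or more. Wild-type regions that stood alone, with no other merged region within 5000 bp, overlapped a gd7 region in 26.01% of cases.

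Members were longer than other regions, while their values were nearly the same. The median length was 490 bp in wild-type members and 350 bp in other wild-type regions, and 560 bp and 420 bp in gd7. Regions of 1 kb or more made up 14.6% of wild-type members and 5.83% of the others, and 20.3% of gd7 members and 12.1% of the others. The median value was 2.44 in wild-type members (95% interval 2.37 to 2.54) and 2.40 elsewhere, and 2.56 in gd7 members (2.49 to 2.66) and 2.53 elsewhere. Among the 100 strongest regions of each genotype, 14 in wild-type and 26 in gd7 were in a chain. Length and overlap are linked, since a longer region can overlap more, and the part of length in the overlap shares was not tested.

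**Figure D4:**
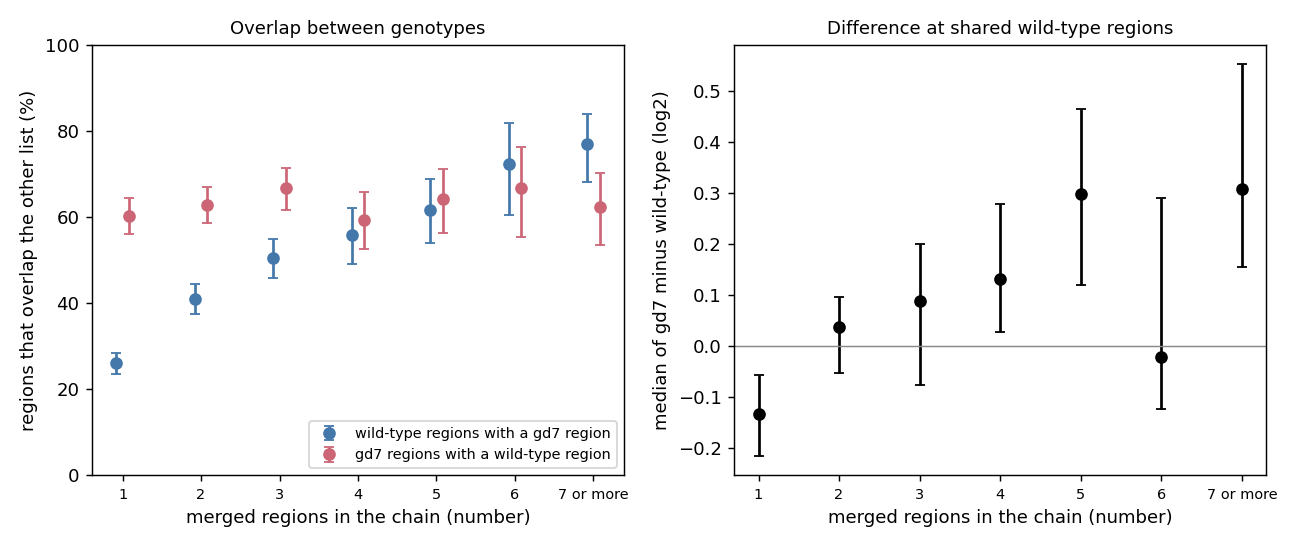
Overlap between genotypes (left, percent of regions that overlap the other genotype, with 95% Wilson intervals) and the median of gd7 minus wild-type at shared wild-type regions (right, log2, with 95% binomial intervals), by the number of merged regions in a chain. Wild-type overlap (blue) goes from 26.01% to 76.9% while gd7 overlap (red) stays between 59.3% and 66.7%, and the median goes from -0.13 for regions that stand alone to 0.31 in chains of 7 or more, with chains of 6 at -0.02.

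Shared regions in chains had, at the median, a higher value in gd7 than in wild-type. The median difference over the 230 shared wild-type members was 0.25 on the log2 scale (95% interval 0.14 to 0.34), against 0.01 (-0.06 to 0.07) over the 987 shared wild-type regions elsewhere. In the chains 147 of 230 (63.9%) had the higher value in gd7, where the background over all shared regions was 53.2%. Counted once per gd7 region instead, the medians were 0.17 in chains (0.07 to 0.26) and -0.06 elsewhere (-0.12 to 0.003). Members lie close together and some share a gd7 region, so they are not independent and these intervals are no test. Regions without a partner are left out of all these medians. Without the chain at Tom and Brd the median was 0.20. By chain size it was -0.13 for regions that stood alone, 0.13 in chains of 4, 0.30 in chains of 5, -0.02 in chains of 6 and 0.31 in chains of 7 or more, so it did not go steadily with size.

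More than 2-fold higher values in gd7 were found at 31 of the 230 shared wild-type members (13.5%, 9.66 to 18.5%), where the background was 10.2%, and more than 2-fold lower values at 8 (3.48%, 1.77 to 6.71%), where the background was 5.92%. Both backgrounds lay within the intervals of the members' shares. A difference was scored only where both genotypes had a listed region, and the lowest gd7 value was 1.93. A wild-type region less than 2-fold above that value could therefore not count as lower, in chains or elsewhere. The 105 wild-type members without a gd7 partner were not scored. The paper instead measured the gd7 signal within every wild-type region. The 31 and 8 are thus no balance of gains and losses. The 31 regions lay in 16 chains and rested on 23 gd7 regions, and 8 of the 31 were in the chain at Tom and Brd. Without that chain 23 remained. Counted once per gd7 region, 20 of 227 were higher (8.81%) and 10 lower (4.41%). Elsewhere these shares were 7.79% and 7.89% of 988, so the higher share was close to that outside chains. The 8 lower regions lay in 8 chains, at ptc, emc, hth, opa and CG11033, on X from 2030770 to 2032800, on 3R from 12695025 to 12695480, and in a chain on 3R from 12878285 to 12891095.

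**Figure D5:**
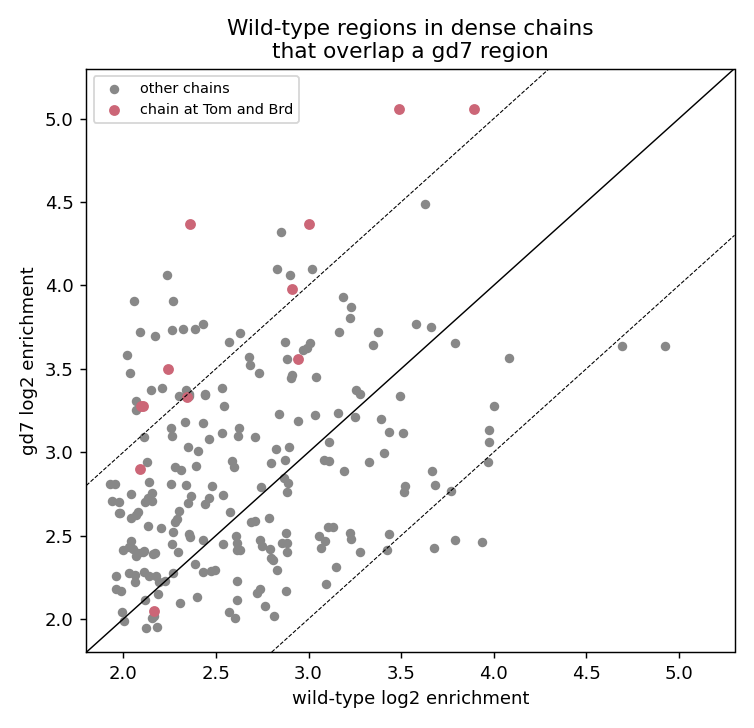
Log2 enrichment in gd7 (y axis) against wild-type (x axis) for the 230 wild-type regions in chains that overlap a gd7 region; both axes start at 1.8. The solid line marks equal values, the dashed lines the 2-fold limits, and red points the 12 shared regions of the chain at Tom and Brd. A total of 31 points lie above the upper dashed line, 8 of them red, and 8 points lie below the lower one.

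Within a chain, regions often differed in opposite directions. Of the 42 chains with 3 or more shared wild-type regions, 9 had all of them higher in gd7, 2 had all of them lower and 31 were mixed. The all-higher chains included those at neur, odd, tsh and ush, and the others, on X and 3R, were not named. Both all-lower chains were on X, from 3667020 to 3675280, where 4 regions differed by -0.08 to -0.13, and from 4571560 to 4582410, by -0.23 to -0.69. From the lowest to the highest difference, the median span within these 42 chains was 1.16 on the log2 scale, over 2-fold. The widest, 2.65, was at opa, and the narrowest, 0.05, in the first of the all-lower chains on X.

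The genotypes also formed chains on their own. When the same rule was applied to the wild-type list alone, 38 chains held 224 regions, 7.43% of the list, and in the shorter gd7 list 41 chains held 251 regions, 12.9%. Of the 74 chains of the pooled lists, 15 held a chain of each genotype, 19 a chain of wild-type alone and 23 a chain of gd7 alone, and 17 reached 5 merged regions only when the lists were pooled. The chains at Tom and Brd, brat, jumu, HmgZ and HmgD, scyl and th were among those with a chain in both. Those at Doc2, Doc1, dpp, ush, odd, opa, salm, CG12007 and tou had a chain in gd7 alone, and those at emc, neur, hth, trx, lola, CG11033 and Psc and Su(z)2 in wild-type alone.

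Genes were grouped by lists of early patterning and chromatin genes, which had been drawn up with earlier results of these data known. Only the 1999 of 3013 wild-type regions named in the part of the peak table used here could be scored. Genes on X and on the rest of 3R thus count as neither in nor outside chains, although chains that were not named lie there. Over the 1371 genes nearest to a named wild-type region, 85 (6.20%) had such a region in a chain. The share was 4 of 8 in the list of dorsal ectoderm and amnioserosa genes (Doc1, Doc2, dpp and ush), 5 of 5 scored genes in the Notch and Bearded list of 22 (BobA, Brd, Ocho, Tom and emc), 3 of 5 in the Polycomb list (Psc, RYBP and Su(z)2) and 3 of 8 among pair-rule genes (ftz, odd and opa). A single gene was in a chain in the segment polarity list (ptc, of 6), the gap and head list (tsh, of 11) and the neuroectoderm list (neur, of 12). The grouping placed tsh, a zinc finger gene, with the gap and head genes, though it is neither. It also placed emc, whose product blocks bHLH proteins, with the Notch and Bearded genes, and neur with the neuroectoderm genes. None of the 4 mesoderm genes, from a list of 11, with a named wild-type region had one in a chain. The same held for the 5 homeotic genes, from a list of 8, and the remaining genes of both lists were not scored. The homeotic count rests on naming by the closest start site. On release 6, ftz, which had chains, lies between Scr and Antp, and Antp had a chain of 4 merged regions. Of the 5 Notch and Bearded genes, 4 are neighbours in a single chain, so they are not separate instances. Psc and Su(z)2 also share a chain, and the chains at Doc2 and Doc1 lie 6.37 kb apart. Together, 18 of 64 listed genes (28.1%) were in a chain, and 41 of their 46 wild-type regions in chains overlapped a gd7 region. Over all named genes, 153 of 224 wild-type regions in chains did so.

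The threshold of 5 merged regions cut through a continuous range of sizes. The 74 chains of 4 merged regions, just outside it, held 219 wild-type and 204 gd7 regions. Of these wild-type regions 55.7% overlapped a gd7 region, and the median difference was 0.13. In the 42 chains of 5, just inside it, the values were 61.7% and 0.30. The chain of 4 with the most original regions, on 3L from 10840585 to 10856125 at tna, a gene of the trithorax group, had 5 wild-type and 6 gd7 regions and a median difference of 1.14.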

How the data were processed

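The deposited files were the authors' lists of CBP-bound regions, 1 per genotype, on release 5. The authors divided ChIP by input signal, took log2, kept the top 5% and made regions no shorter than 200 bp of them. The deposited value is this log2 enrichment minus a constant. The constant, 1.876 in wild-type and 1.927 in gd7, was added back. It was found by matching 1999 of 3013 and 170 of 1939 regions to the part of the study's peak table used here (largest deviation 5.0e-06). The lists carry no read depth, so intervals are given over regions only.

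Chains, overlaps (at least 1 bp) and differences (highest overlapping gd7 value minus wild-type value, 2-fold limit) were computed with Python 3.11.15, numpy 2.4.6 and pandas 2.3.3. Wilson intervals and binomial intervals of medians came from scipy 1.17.1, plots from matplotlib 3.10.9. The counting was tested on simulated regions. Chains were ranked by merged regions, then original regions, then length.

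Named were the genes of the 12 highest ranked chains, of the 5 chains most carried by each genotype, of the 5 highest and 5 lowest median differences, of the 10 strongest regions per genotype, of the 5 largest differences each way, and of the gene lists. Chains, lists and rule were chosen with earlier results of these data known. Of 85 genes, 83 matched a release 6 table, used for names and gene order only. Promoter motifs were planned but not run, as no sequence was used here. Alternatives changed the gap, chain size, value cut-off, list length, fold limit, constant and counting direction.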

Additional observations from a re-analysis of the deposited data

How the results depend on the processing

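No paired analysis was possible because each genotype had 1 library. Of 57 alternative values, 26 stayed within the interval or within 1.5 times of the value reported, 31 moved and 0 changed direction. Main values are 74 chains, 335 wild-type and 355 gd7 members, 68.7% overlap, 31 higher, 8 lower and a median of 0.25. With a gap of 2500 bp there were 31 chains, 157 wild-type and 156 gd7 members, 2 lower and a median of 0.35. With 10000 bp there were 128 chains, 671 and 644 members, 61.8% overlap, 54 higher and 19 lower. Chains of 4 or more numbered 148, with 554 and 559 members. Chains of 6 or more numbered 32, with 173 and 202 members, 75.1% overlap, 18 higher and 3 lower. At values of at least 2.5 in both lists there were 13 chains, 51 and 62 members, 5 higher and 0 lower. With the wild-type list shortened to the length of the gd7 list, 173 wild-type members, 78.0% overlap and 17 higher were left. Stronger wild-type regions overlapped more often outside chains too, and the 78.0% has no share outside chains beside it. A 1.5-fold limit gave 72 higher and 27 lower, and counting per gd7 region gave 20 higher. The median was positive in every alternative, from 0.17 to 0.35. Leaving out the chain at Tom and Brd, chosen after the data were seen, moved no value beyond these limits. The planned promoter motifs were not run. A region near the cut-off may be listed in 1 genotype alone after a small difference, and the lists do not show its size.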

Other observations

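Some chains lay close to another chain. Within 25 kb of each other were the chains at Doc2 and Doc1 (6.37 kb), both chains at ftz (13.2 kb), those at tgo, neur and hyx and at CG11033 (14.0 kb), those at tou and at CG9005 and CG9003 (21.0 kb), and a pair each on 3R (7.28 kb) and X (23.8 kb) that were not named. In the pairs at neur and CG11033 and at tou and CG9005, the make-up of the neighbours differed. The 4 shared regions at tgo, neur and hyx were all higher in gd7, while the single shared region at CG11033 was lower. Of the 9 merged regions at tou 6 were in gd7 alone, while of the 7 at CG9005 and CG9003 3 were in wild-type alone and none in gd7 alone. No test was made of these contrasts.
Regions were cut differently in the genotypes at some places. In the chains, 15 of 355 gd7 regions each covered 2 or more wild-type regions, as at Tom, scyl and th, and 12 wild-type regions each covered 2 or more gd7 regions, as at CG11033. Elsewhere 33 of 1584 gd7 regions covered 2 or more wild-type regions.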
